A study of Drosophila melanogaster with 8 samples.

Results

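To identify the DNA that carried more signal when the transcription factor Chronophage (Cph) was profiled in intestinal progenitor cells, the stretches of genome that were in a peak of every library were compared between Cph NanoDam and NanoDam-only control midguts. A stretch of at least 200 bp that lay in the peaks of all 8 libraries, each called without a control, was taken as a common region. The level of a region in a library was the pileup of the peak that covered it, per 10000000 tags of the library. Pileup is the depth of stacked sequence tags, for which the peak caller reported 1 value per peak. Of 16232 common regions, 523 (3.22%) had a Cph over control ratio of at least 1.4 in all 4 pairs of libraries with the same replicate number, and these 523 regions are described here. The mirror count was 127 regions (0.782% of all common regions) with a ratio of at most 1/1.4 in all 4 pairs. These ratios chose the regions, so the levels and ratios of the 523 are given as a description, without a test.

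The Cph NanoDam midguts had the genotype CphYFP x UAS-NanoDam x esgTS, and the control midguts had UAS-NanoDam x esgTS without the tagged allele. Both groups carried the esgTS driver, which confines the NanoDam transgene to progenitor cells, and both were reared at 18 °C and shifted to 29 °C for 17 h as adults of 3 to 5 days. Each of the 4 samples per group was DNA from 30 pooled midguts, and samples of replicates 3 and 4 in both groups carried the batch label 2, which replicates 1 and 2 did not. Since whole midguts were dissected, fewer marked cells and less signal per cell cannot be told apart.

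In NanoDam, a bacterial adenine methylase is carried to a tagged protein by a small antibody fragment that binds the tag, here YFP. The GATC sequences around the places where the protein sits are thereby marked, and the DNA between marked sites is cut out, amplified and sequenced. The methylase also marks accessible chromatin without any tagged protein, which is what the control measures. Cph is a zinc finger protein related to mammalian BCL11A and BCL11B, and in the fly midgut the progenitors comprise the intestinal stem cells and the enteroblasts and enteroendocrine precursors that they give rise to. Notch signalling between these cells directs the choice between the absorptive enterocyte and the hormone-secreting enteroendocrine cell.

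Like all common regions, many of the 523 followed the map of GATC sites. The start of 294 of the 523 regions (56.2%) lay exactly 11 bp inside the nearest GATC before it, and 191 regions (36.5%) had both ends at this distance, compared with 52.7% and 32.4% of all common regions. A median of 263 bp separated the GATC sites on either side of the centre of a region, compared with 305 bp for all common regions. To show what such a fragment is, 7 of them are printed from one GATC to the next, with the GATC sites in capitals. They include 3 of the highest ratios that lay in unique sequence and 4 regions at genes of progenitor biology. The sequence is the plus strand of the release 6 assembly from RefSeq, 5′ to 3′.
Nhe2 intron, chr2L:21108589-21108796: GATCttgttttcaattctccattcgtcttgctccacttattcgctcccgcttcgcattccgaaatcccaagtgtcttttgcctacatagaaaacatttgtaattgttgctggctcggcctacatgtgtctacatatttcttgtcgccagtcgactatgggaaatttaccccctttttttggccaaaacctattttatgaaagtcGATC
near BobA, chr3L:14956902-14957143: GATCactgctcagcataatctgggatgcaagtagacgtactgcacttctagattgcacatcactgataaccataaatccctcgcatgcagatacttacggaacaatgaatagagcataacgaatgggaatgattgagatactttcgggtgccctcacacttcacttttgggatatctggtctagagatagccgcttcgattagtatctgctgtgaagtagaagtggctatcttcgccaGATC
CG4607 coding exon, chrX:7071632-7071892: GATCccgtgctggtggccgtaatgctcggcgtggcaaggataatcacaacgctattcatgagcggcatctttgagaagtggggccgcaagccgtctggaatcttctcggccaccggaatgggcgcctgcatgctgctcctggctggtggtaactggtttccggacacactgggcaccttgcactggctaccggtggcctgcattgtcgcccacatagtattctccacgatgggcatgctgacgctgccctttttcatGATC
Cph intron, chrX:7198691-7198946: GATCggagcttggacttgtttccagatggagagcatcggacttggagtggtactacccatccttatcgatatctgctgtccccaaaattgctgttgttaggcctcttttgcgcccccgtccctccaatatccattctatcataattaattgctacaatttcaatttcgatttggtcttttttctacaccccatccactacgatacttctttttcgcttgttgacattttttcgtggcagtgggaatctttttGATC
klu intron, chr3L:11003264-11003451: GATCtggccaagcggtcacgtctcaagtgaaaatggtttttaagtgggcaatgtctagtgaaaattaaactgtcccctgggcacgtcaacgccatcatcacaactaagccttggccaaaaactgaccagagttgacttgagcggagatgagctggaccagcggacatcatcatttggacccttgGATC
upstream of vn, chr3L:5848617-5848807: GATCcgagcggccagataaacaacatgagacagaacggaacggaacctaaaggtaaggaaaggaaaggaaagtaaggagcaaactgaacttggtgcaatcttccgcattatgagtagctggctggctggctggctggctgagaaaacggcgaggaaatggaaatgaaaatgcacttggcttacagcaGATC
InR intron, chr3R:21586505-21586730: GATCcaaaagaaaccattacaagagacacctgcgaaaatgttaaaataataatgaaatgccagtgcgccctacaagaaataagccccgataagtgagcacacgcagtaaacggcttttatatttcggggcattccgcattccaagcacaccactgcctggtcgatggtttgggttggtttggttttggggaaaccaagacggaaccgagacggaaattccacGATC

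The 2 sites of each printed fragment are its ends, and none has a GATC in between. The fragment in the intron of klu was 188 bp long and held TGACCA, the word that mammalian BCL11A recognises. This word, searched on both strands in the central 200 bp, was in 75 of the 523 regions (14.3%) and in 12.5% of all common regions. GATAA was in 35.0% of the 523 and 30.5% of all, and GAGAG in 31.0% and 25.3%. CAGCTG was in 12.2% and 13.0%, CAGGTG in 11.7% and 11.7%, and TGGGAA in 8.60% and 10.7%. None of these words contains another, and a GATC was in the central 200 bp of 52.2% of the 523 and 46.5% of all. A match is a string of letters and was not tested as a binding site.

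The level of the 523 regions was higher in each Cph library than in the control of the same number, as the rule required. Their median level was 158, 253, 159 and 146 in Cph replicates 1 to 4, against 91.3, 92.2, 72.2 and 74.7 in control replicates 1 to 4. Over all common regions the medians were 85.0, 109, 97.7 and 90.4 in Cph libraries and 90.5, 86.1, 79.4 and 82.2 in control libraries. The control libraries therefore held the 523 regions at about the level of a common region, and the Cph libraries held them above it. In 399 of the 523 (76.3%) every Cph library was above every control library, compared with 7.74% of all common regions. This difference follows from the rule and is not support for it.

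**Figure D1:**
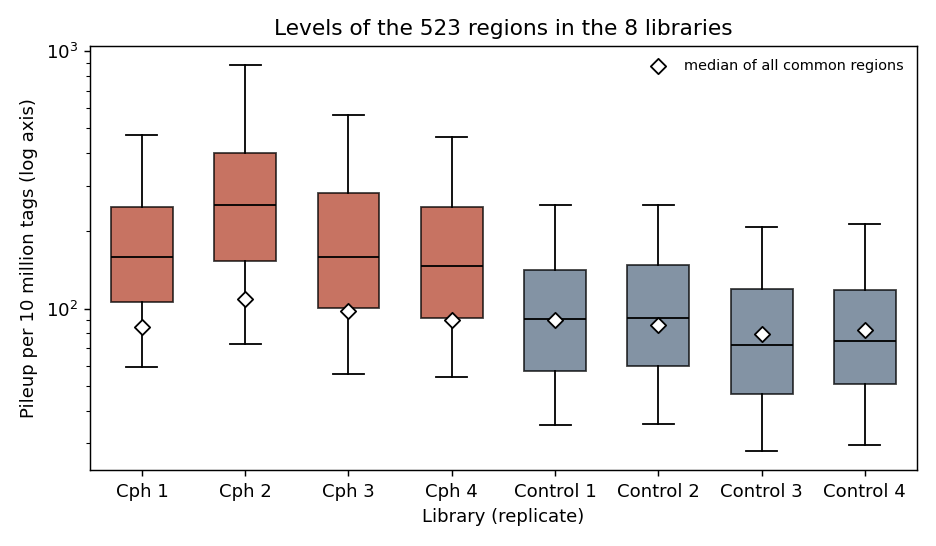
Levels of the 523 regions, as pileup per 10000000 tags on a log axis, in the 4 Cph NanoDam libraries (red, left) and the 4 control libraries (blue, right). Boxes span the quartiles with the median as a line, whiskers reach the percentiles 5 and 95, and diamonds mark the median of all 16232 common regions. Box medians were 146 to 253 in Cph libraries and 72.2 to 92.2 in control libraries.

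The 4 pairs did not contribute equally. Over all common regions the median ratio was 0.93 in pair 1, 1.28 in pair 2, 1.21 in pair 3 and 1.08 in pair 4. A ratio of at least 1.4 was reached by 9.09% of all common regions in pair 1, 41.9% in pair 2, 35.2% in pair 3 and 20.7% in pair 4. Pair 1 thus set the limit for most members, and it held the lowest of the 4 ratios in 292 of the 523. Pair 2 held the highest in 329. The median ratio of the 523 was 1.67 in pair 1, 2.58 in pair 2, 2.08 in pair 3 and 1.85 in pair 4. The lowest of the 4 ratios of a region had a median of 1.56, and it was at least 2 in 44 regions (8.41%). The geometric mean of the 4 ratios had a median of 2.04, with quartiles of 1.81 and 2.40.

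Libraries ranged from 55557571 to 125721243 tags, and each control library had 1.14 to 1.31 times the tags of its Cph partner. The fragment length to which the peak caller extended the tags, and which raises the pileup, was 209 to 248 bp in Cph libraries and 194 to 231 bp in control libraries. With the pileup also divided by this length, 489 regions passed, of which 420 were among the 523. The peaks that covered the 523 had a median width of 541 to 602 bp in Cph libraries and 561 to 682 bp in control libraries. In Cph and control they were 565 and 625 bp in pair 1 and 541 and 682 bp in pair 2. In pair 3 they were 562 and 564 bp, and in pair 4 602 and 561 bp. The part of peak width in the ratios was not tested. With fold enrichment over local background in place of pileup, 174 passed, of which 137 were among the 523. Since 1 value stood for each peak, 6 to 16 of the 523 shared a peak, and so a level, with another of them in a given library.

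Just inside the threshold, the lowest ratio was 1.40006 in an intron of Cip4, 1.40129 in a coding exon of Vha100-4 and 1.40145 in an intron shared by Rbcn-3B and mip130. Just outside it, it was 1.39974 in an intron of Mmp1, 1.39949 in an intron of Nrt and 1.39944 in a coding exon of RhoGAP18B. The Mmp1 region had ratios of 2.27, 3.18 and 2.29 in pairs 2 to 4 and missed the threshold in pair 1 alone.

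Whether the higher level held in libraries whose ratios the choice had not used was tested next. Every library had already entered the definition of a common region, for the chosen regions and for all common regions alike. The libraries tested were therefore not fully independent of the choice. The test covers regions chosen on 2 pairs, and not the set chosen on all 4. A total of 1046 regions had a ratio of at least 1.4 in pairs 1 and 2, and their levels were then tested in the 4 libraries of replicates 3 and 4, over all common regions. Of these 1046, 460 (44.0%) were called higher in Cph, compared with 11.3% of all common regions (limma, two-sided, Benjamini-Hochberg adjusted p under 0.05), and 2 were called lower. With fold enrichment in place of pileup it was 59 of 582 (10.1%), compared with 1.18% of all. The median log2 ratio of the 1046 in replicates 3 and 4 was 0.68, with quartiles of 0.42 and 0.99, compared with 0.18 over all common regions. The log2 ratio was above 0 in 94.7% of the 1046 and in 66.8% of all.

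In the opposite direction, 2354 regions were chosen on pairs 3 and 4 and tested in replicates 1 and 2. Only 21 (0.892%) were called higher, compared with 0.166% of all common regions, and 1 was called lower. With the replicate number as a block the count was 33. The median log2 ratio of the 2354 in replicates 1 and 2 was 0.57, compared with 0.12 over all common regions, and 91.7% of them were above 0. At an unadjusted p under 0.05, 513 (21.8%) of the 2354 were higher, compared with 5.79% of all. Replicate libraries 1 and 2 were less alike than replicates 3 and 4, with a correlation of log2 level over all common regions of 0.86 in Cph and 0.91 in control, against 0.95 in Cph and 0.95 in control for replicates 3 and 4. With each library centred on its median over all common regions, 278 of 996 chosen regions (27.9%) were called higher in replicates 3 and 4, compared with 4.38% of all. There 4.15% of all common regions were called lower, against 1.97% without centring. With the same centring 0 of 1241 chosen regions, and 0 of all, were called in replicates 1 and 2 by limma, where 355 (28.6%) of those chosen and 5.14% of all were higher at an unadjusted p under 0.05.

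Each pair was then left out of the choice in turn. The regions that also pass in the pair left out are always the 523 themselves. Each share is thus 523 over the number chosen on the other 3 pairs. It describes the ratios that the rule used and is not support for the rule. Among regions at or above 1.4 in pairs 1, 2 and 4, 82.8% were so in pair 3, and the share was 91.8% for pair 2 and 69.4% for pair 4. For pair 1 it was 27.7% of 1887 regions, where 9.09% of all common regions passed. The median ratio in the pair left out was 1.15 for pair 1, 2.46 for pair 2, 1.90 for pair 3 and 1.63 for pair 4. The mirror was read in the same way. Of 221 regions at or below 1/1.4 in pairs 2 to 4, 57.5% were so in pair 1. This mirror share was 55.2% for pair 2, 80.4% for pair 3 and 55.7% for pair 4. The share of all common regions at or below 1/1.4 was not counted by pair. The lower quartile of their ratio was 0.78, 0.97, 0.93 and 0.89 in pairs 1 to 4, above 1/1.4 in each.

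**Figure D2:**
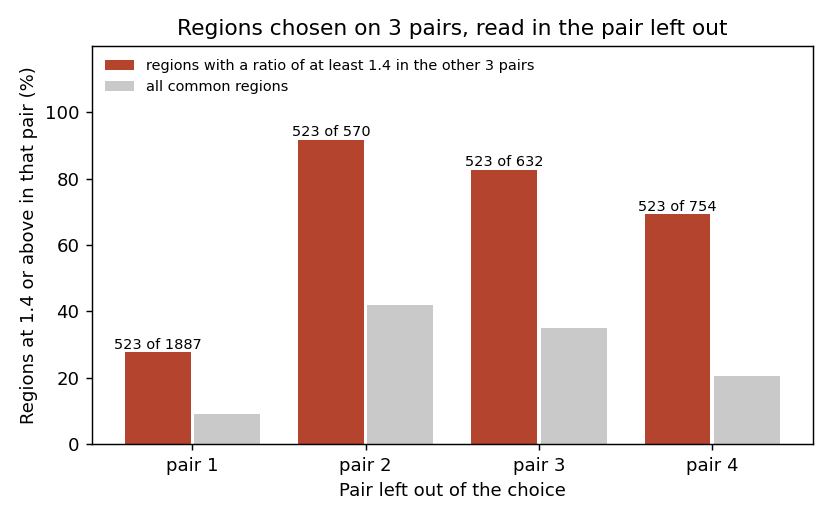
Percentage of regions with a Cph over control ratio of at least 1.4 in the pair named on the x axis, for regions that reached 1.4 in the other 3 pairs (red) and for all 16232 common regions (grey). The red bars stand at 27.7%, 91.8%, 82.8% and 69.4%, above grey bars of 9.09%, 41.9%, 35.2% and 20.7%.

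The authors also called Cph peaks against the control of the same number. A peak of every one of these 4 lists covered 493 of the 523 regions (94.3%) and 36.6% of all common regions, while 1 of the 523 was in none. The fold enrichment of these peaks had a median of 2.42, 3.12, 2.75 and 2.53 in replicates 1 to 4. These lists rest on the same libraries as the rule and are not independent of it.

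Of the 12 regions with the highest lowest-of-4 ratio, 6 had their centre in an intron, 4 lay between genes and 2 were in coding exons. All 12 were in a peak of all 4 Cph-over-control lists, and in 11 every Cph library was above every control library.

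The second highest was in an intron of P5CS, which encodes an enzyme of proline synthesis, at chr3L:21974624-21974837. Its level was 474, 645, 1079 and 1011 in Cph replicates 1 to 4, against 151, 82.2, 142 and 222 in control replicates 1 to 4, and its ratios were 3.13, 7.84, 7.59 and 4.56. Every Cph library was above every control library, and the levels of Cph replicates 3 and 4 were the highest among the 12.

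A region in an intron of Nhe2, which encodes a sodium and proton exchanger, at chr2L:21108592-21108793 had levels of 214, 285, 189 and 160 in Cph libraries, against 76.5, 37.9, 51.4 and 56.2 in control libraries. Its fragment is the first one printed above, and CG46307 has the same start as Nhe2 there. A region 10787 bp from BobA, a Bearded family gene that inhibits Notch signalling by way of neuralized, at chr3L:14956913-14957132 had 146, 247, 213 and 157 in Cph libraries, against 53.7, 54.0, 32.5 and 53.5 in control libraries. It lay between genes, with the nearest transcription start 7029 bp away.

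A region in an intron of fray, which encodes a kinase of ion transport, at chr3R:18578714-18578964 had 500, 994, 184 and 137 in Cph libraries, against 133, 162, 43.5 and 50.7 in control libraries. This was the only one of the 12 at which the groups overlapped, with Cph replicate 4 under control replicate 2, while each pair had a ratio of at least 2.70. Replicates 1 and 2 were higher than replicates 3 and 4 in both groups here, as they were at Sema5c and at the highest region, in a gypsy copy, where the groups did not overlap. Sema5c, a semaphorin gene, held a region at chr3L:12072979-12073285 with 218, 446, 113 and 106 in Cph libraries, against 83.4, 83.5, 46.4 and 43.7 in control libraries. A region 3907 bp from hng3, at chr3L:733330-733772, had 203, 285, 185 and 170 in Cph libraries, against 79.2, 92.0, 42.1 and 54.2 in control libraries.

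On arm 2R, CG46385 held a region at chr2R:7773458-7773671 with ratios of 3.76, 6.29, 4.62 and 2.81. A region at a transcription start inside aPKC, the kinase of the Par polarity complex, at chr2R:14950823-14951117 had 123, 240, 125 and 131 in Cph libraries, against 51.1, 82.9, 46.6 and 39.6 in control libraries. A coding exon of Pde8, a cyclic nucleotide phosphodiesterase gene, at chr2R:23672750-23673015 had 319, 490, 331 and 288 in Cph libraries, against 134, 97.6, 72.4 and 120 in control libraries. The evenest of the 12 was a coding exon of CG4607 at chrX:7071656-7071881, with ratios of 2.43, 2.40, 2.40 and 2.55. With fold enrichment in place of pileup the lowest ratio was under 1.4 at 3 of the 12, with 1.18 at CG4607, 1.32 near hng3 and 1.11 at the nested elements near TpnC41C.

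**Figure D3:**
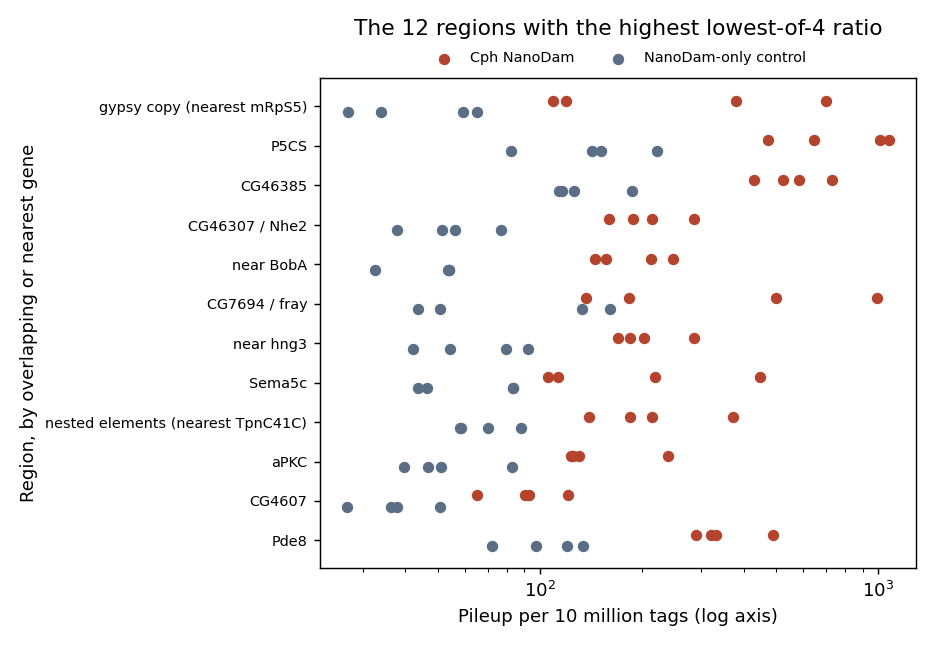
Levels of the 12 regions with the highest lowest-of-4 ratio, as pileup per 10000000 tags on a log axis, with 1 point per library for the 4 Cph NanoDam (red, upper) and 4 control (blue, lower) libraries. The colours overlap only in the row of CG7694 and fray, where Cph levels were 137 to 994 and control levels 43.5 to 162.

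The highest region and one other of the 12 lay in transposable elements. At chr3L:24466782-24467026, wholly within a copy of gypsy, a long terminal repeat retrotransposon, the level was 380, 700, 120 and 109 in Cph libraries, against 65.0, 59.0, 27.1 and 33.9 in control libraries, with ratios of 5.85, 11.9, 4.41 and 3.22. This 245 bp stretch occurred with 100% identity at 5 of the 523 regions, 3 on arm 3L, 1 on 3R and 1 on X, and none of its 50-base words was unique in the genome. The 5 copies had ratios of 4.59 to 5.85 in pair 1, 9.41 to 11.9 in pair 2, 3.10 to 4.41 in pair 3 and 1.85 to 3.22 in pair 4. They are 1 sequence counted 5 times. The study's methods kept uniquely mapped reads, and how reads came to be placed on identical copies was not tested, nor was the number of gypsy copies in each cross.

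A cluster of nested elements at chr2R:5050783-5056473 held 3 further regions, of which the middle one, at chr2R:5053291-5053700, was among the 12 with ratios of 2.44, 5.28, 3.15 and 2.41. Of 13 common regions that overlapped a gypsy copy, 9 were among the 523, where 3.22% of all common regions were. Of these 9, 5 are the identical stretch and 3 lie in the nested cluster, so they are far fewer separate sequences, and gypsy was singled out after its ratios were seen. Over all elements, 12 of the 523 (2.29%) were transposable element over at least 50% of their length, compared with 3.81% of all common regions, and 9 of those 12 were the gypsy regions. Of the 523, 501 (95.8%) had only unique 50-base words, compared with 92.6% of all common regions.

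The gene Cph itself held 3 of the regions among 12 common regions that overlapped it. The region in a coding exon, at chrX:7232708-7233360, had levels of 286, 739, 248 and 245 in Cph libraries, against 147, 144, 72.2 and 74.0 in control libraries, with ratios of 1.94, 5.13, 3.43 and 3.31. The intron region at chrX:7198511-7198935, whose fragment is printed above, had 225, 370, 187 and 171, against 137, 115.01, 58.4 and 71.7 in control libraries. A second intron region, at chrX:7222566-7222853, had 182, 336, 132 and 134, against 113, 142, 54.6 and 46.5 in control libraries, and there the groups overlapped. The lowest of the 4 ratios was 1.61 to 1.94 over the 3. The other 9 common regions of Cph did not pass, and the 12 together had a median geometric mean ratio of 1.31.

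The neighbourhood of Cph was dense in these regions. Of 239 windows of 0.5 Mb with at least 20 common regions, the window at 7.0 to 7.5 Mb of the X chromosome had the highest share, with 9 of 44 common regions (20.5%), compared with a median of 2.78% over the windows. This window was singled out after its values were seen. Besides the 3 regions of Cph, it held 2 in CG4607, 1 in CG4615 and 3 in CG1677, of which 2 were also in Atg5, a gene of autophagosome formation. At Atg5 the level was 237, 567, 325 and 341 in Cph libraries, against 133, 182, 135 and 141 in control libraries. The next window, on arm 3L, had 6 of 43 (14.0%). The tagged Cph allele, with the X chromosome around it, was carried by the Cph crosses alone, so binding there and a difference between the chromosomes of the crosses cannot be told apart.

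**Figure D4:**
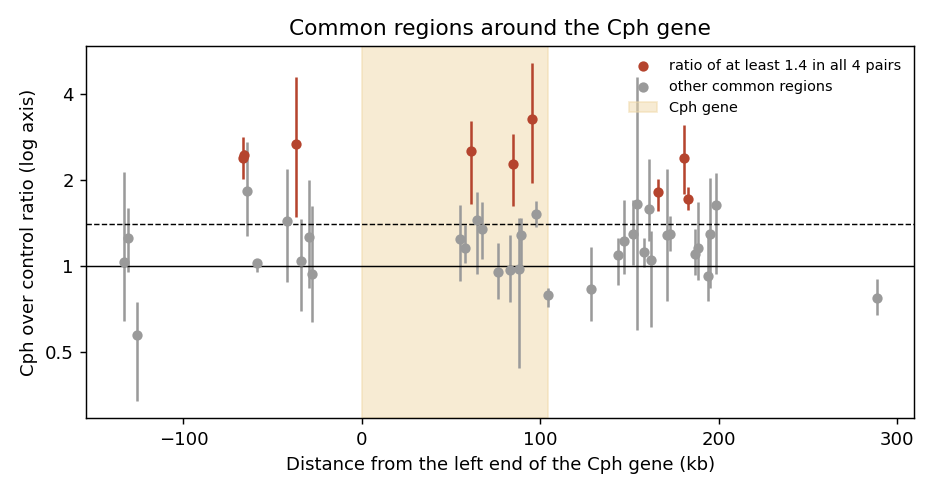
Cph over control ratio on a log axis of the 44 common regions at 7.0 to 7.5 Mb of the X chromosome, by distance in kb from the left end of the Cph gene (shaded). Points are geometric means of the 4 pairs and lines run from the lowest to the highest pair. The 9 red regions pass the dashed line at 1.4 in all 4 pairs, and the 35 grey ones do not.

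Genes of the Notch pathway were next examined. Of 21 listed genes with a common region, 7 held one of the 523 in the gene or within 3000 bp of a transcription start, compared with 5.63% of all genes with a common region. Counted by region, 7 of 83 (8.43%) were among the 523, compared with 3.26% over all genes. Long genes hold many common regions, and neither count was tested.

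The receptor gene N had an intron region at chrX:3153095-3153529 with 57.9, 108, 69.2 and 94.2 in Cph libraries, against 40.1, 48.6, 39.5 and 58.1 in control libraries. The groups overlapped there, since the lowest Cph library was under the highest control library. An intron of numb, an inhibitor of Notch, had 124, 176, 107 and 167 in Cph libraries, against 75.9, 52.1, 56.7 and 87.0 in control libraries. An intron of kuz, the protease that cleaves Notch, had 159, 83.3, 109 and 136 in Cph libraries, against 89.7, 52.8, 67.5 and 80.4 in control libraries. Replicate 1 was the highest library of both groups there, and the groups overlapped.

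A pair of stretches beside E(spl)mgamma-HLH, a target gene of Notch, were within 3000 bp of E(spl)mdelta-HLH as well. The longer one, at chr3R:26000349-26001593, had 307, 614, 309 and 292 in Cph libraries, against 209, 197, 149 and 164 in control libraries. Both stretches lay in 1 peak in Cph replicates 3 and 4 and in control replicates 2 to 4, where they have the same level. The remaining regions of the list were an intron of mam, the co-activator of Notch, with 55.1, 56.5, 28.3 and 38.8 in Cph libraries, against 30.6, 29.1, 20.2 and 21.7 in control libraries, where the groups overlapped, and a region next to aph-1, a subunit of gamma-secretase, that lay in the neighbouring gene Snx21.

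Among regulators of stem cells and enteroblasts, 6 of 22 genes with a common region held one of the 523, compared with 5.63% of all genes, and 10 of 127 common regions (7.87%) were among them, compared with 3.26% over all genes. As for the Notch list, the number of common regions per gene differed and the counts were not tested. The enteroblast zinc finger gene klu had 2 intron regions. The one at chr3L:11003243-11003468 had 118.2, 221, 306 and 306 in Cph libraries, against 68.6, 67.0, 86.9 and 147 in control libraries, and the one at chr3L:11004537-11005112 had 234, 368, 224 and 208, against 136, 127, 89.7 and 124 in control libraries. The groups overlapped at the first of these and not at the other. The insulin receptor gene InR had 3 intron regions, and the one at chr3R:21600962-21601712 had 97.5, 177, 176 and 195 in Cph libraries, against 52.4, 45.0, 47.9 and 50.9 in control libraries. Its control levels were within 45.0 to 52.4, and every Cph library was above them.

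Sox21a, a transcription factor gene of progenitor differentiation, had a region of 1578 bp in an intron with 286, 531, 298 and 255 in Cph libraries, against 200, 220, 158 and 168 in control libraries. The Egfr ligand gene vn had a region 2939 bp from its start with 114, 176, 205 and 179, against 60.6, 70.2, 103 and 97.3 in control libraries. The cytokine gene upd3 had an intron region with 89.5, 203, 146 and 149, against 61.1, 79.4, 99.6 and 79.4 in control libraries, and the groups overlapped. The helix-loop-helix gene emc had 2 regions, of which one lay in its coding exon with ratios of 1.41, 1.95, 2.10 and 1.79. None of the 523 was in esg or within 3000 bp of its starts.

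Markers of differentiated cells were examined in the same way, beside the 5.63% of all genes and 3.26% of common regions at genes, and with so few regions a count of 0 or 1 is not set apart from these shares. Of 13 enteroendocrine genes with a common region, 1 held a region of the 523, in an intron of Ptx1 with ratios of 1.55, 2.19, 1.71 and 1.44. Of 11 enterocyte genes, 3 held one, and 4 of their 32 common regions (12.5%) were among the 523. These were an exon of the myosin gene Myo31DF, a stretch by alphaTry and epsilonTry within 3000 bp of betaTry, and a coding exon of the proton pump gene Vha100-4 with another of its neighbour Vha100-2. Of 7 visceral muscle genes 1 held one, in an intron of how, and of 5 hemocyte and neuron genes 0 did. None of 24 cell cycle and replication genes held one, in 67 common regions. Of 17 genes of autophagy and cell death, Atg5 and Dark did. CycE, E2f1, pros and sff held none in 21 common regions, of which the highest lowest ratio was 1.34 at E2f1. The study reported Cph NanoDam signal at these genes by another measure, the fold change over control between GATC sites. Peaks found in Cph libraries alone are not common regions and were not compared here, and sff had 1 common region. Over all lists 29 regions were named, and 19 of them had every Cph library above every control library, compared with 76.3% of the 523 and 7.74% of all common regions. The groups overlapped at the others, which were the regions of N, mam, kuz, upd3, Ptx1, Myo31DF and Dark, and one region each of klu, InR and Cph.

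The regions lay in introns more often than other common regions did. The centre was in an intron for 250 of the 523 (47.8%), compared with 31.4% of the other 15709, and in a coding exon for 143 (27.3%), compared with 44.0%. The other places differed by less, with 6.69% against 5.81% in 5′ UTRs, 2.87% against 3.24% in 3′ UTRs and 12.6% against 13.6% between genes. The distance to a transcription start did not set them apart, since 71.3% of the 523 and 70.7% of the other common regions were within 3000 bp of one.

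These shares are a description, and the share in introns depended on the pair. A ratio of at least 1.4 was reached by 14.2% of intron regions and 5.36% of coding exon regions in pair 1, and by 50.4% and 33.5% in pair 2. In pair 4 the shares were 23.7% and 19.8%, and in pair 3 the order was turned, with 33.6% of intron and 38.3% of coding exon regions. Exons of every kind held 39.6% of the 523. Without pair 1 in the rule, 39.0% of 1887 regions were in introns and 48.2% in exons of every kind.

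**Figure D5:**
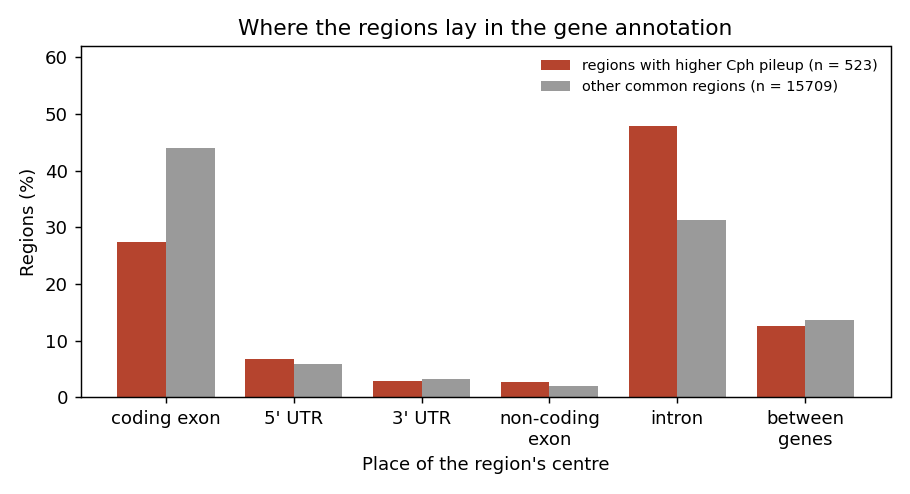
Percentage of regions whose centre lay in each class of the gene annotation, for the 523 regions with higher Cph pileup (red, left) and the 15709 other common regions (grey, right). The red bar is higher for introns, 47.8% against 31.4%, and lower for coding exons, 27.3% against 44.0%.

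The 523 regions were spread over the genome. The share of common regions was 3.31% on 2L, 3.40% on 2R, 2.97% on 3L, 3.15% on 3R and 3.44% on X. On chromosome 4, 1 of 128 common regions was among them, and on chromosome Y 1 of 51. Their GC content in the central 200 bp had a median of 47.5%, compared with 49.0% over all common regions. Without pair 1 in the rule it was 49.0% too. Their length had a median of 352 bp, compared with 390 bp. With all common regions divided by mean level over the 8 libraries into 4 bins of 4058, the lowest bin held 57 of the 523, and the bins above it held 101, 181 and 184. Higher levels in Cph also raise that mean.

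Another of the 523 was within 10 kb of 148 of them (28.3%), where 94.0% of the more numerous common regions had another common region as near. They formed 66 such groups of 2 to 4 regions. Without pair 1 in the rule the share was 49.2% of 1887 regions. The share depends on the number of regions chosen and was not tested. The largest groups had 4 regions. One ran over Past1, PolQ and Men at chr3R:12701608-12715429, where 4 of 5 common regions passed, with an intron of Past1 at 517, 2022, 1089 and 618 in Cph libraries, against 252, 245, 349 and 391 in control libraries. Another ran over the peptide transporter gene yin and CG2930 at chrX:3866630-3872428, where all 4 common regions passed. One more ran over Snx27, IntS6 and Rtel1 on the X chromosome with 4 of 6. At dmGlut, a glutamate transporter gene, all 3 common regions of its group passed. Genes were also ranked by the regions in the gene or within 3000 bp of its transcription starts, after the values were seen. The centrosome gene Plp had the most, with 5 of 10 common regions, including the region in a coding exon of GlyRS. Of 647 protein-coding genes with any of the 523, 553 had 1.

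The flanks of the 523 were examined last. Of 793 common regions that adjoined one of them within 10 kb without being among them, 84 lay in the same peak as that member in at least 1 library and so shared its level there, a split made after seeing the data. The other 709 had a median geometric mean ratio of 1.24, with quartiles of 1.03 and 1.46, compared with 1.10 over all 15709 common regions that were not members. Their ratio was above 1 in all 4 pairs for 35.0%, compared with 20.05%. This difference was not tested.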

How the data were processed

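Genomic DNA cut at methylated GATC sites was sequenced from 8 midgut samples. The authors trimmed the reads, aligned them to BDGP6 and kept those mapped uniquely, and MACS2 gave their broad peaks (2.1.4 per the file headers, 2.2.9.1 in the submitters' processing notes). For each peak the authors deposited the pileup, a signal not scaled for depth, the fold enrichment, a ratio to local background, and −log10 of the q-value. The authors' lists hold 1 pileup per peak and no reads per position, so no counting interval is given. The pileup was divided by the tags of the library. Common stretches, ratios, annotation (Ensembl release 115 without transposable elements) and motifs were computed in Python 3.11.15. Held-out regions were tested on log2 levels with limma 3.58.1 (lmFit, eBayes with trend), 2 libraries per group. The code was tried on simulated libraries with independent noise, of the size between Cph replicates 3 and 4, for the choice on replicates 1 and 2. The larger differences between replicates 1 and 2, and libraries that deviate together, were not simulated. The −log10 q-value served to filter peaks at 5 in an alternative.

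Named regions were the 12 with the highest lowest ratio, the 3 nearest on each side of the threshold, those at listed genes and the largest groups. Members and lists were chosen with earlier results of these data known. Same-numbered Cph and control libraries deviated together from their group means, with correlations of 0.40 to 0.51, and pairs by the label's number were kept. Libraries of replicates 3 and 4, which shared a batch label, were as alike across numbers (0.52 and 0.48), so number and batch cannot be told apart there. Alternatives covered thresholds, stretch length, scaling, fold enrichment, pairing and each replicate left out. Copies of the lists in a second format, without the pileup, were not used.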

Additional observations from a re-analysis of the deposited data

Results flagged for a closer look

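In 10 of 82 groups of 4 libraries, 1 library stood far from the other 3. The groups cover 41 regions, the 12 with the highest lowest ratio and the 29 at listed genes. For independent, normally distributed values about 1 in 20 groups would be flagged. These regions were chosen on the same levels and some share a peak, so the count cannot be set against that rate. Cph replicate 2 was the high one at 5 regions, with a level of 240 at aPKC, 614 at E(spl)mgamma-HLH, 368 at klu, 531 at Sox21a and 739 at Cph. In the control, replicate 4 was high with 187 at CG46385, 49.8 next to aph-1 and 52.8 at Vha100-4, replicate 2 was high with 182 at Atg5, and replicate 3 was low with 32.5 near BobA. Cph replicate 2 also had the longest fragments, 248 bp. The part of fragment length in these values was not tested region by region.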

How the results depend on the processing

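The number of regions was 831, 337 and 44 at ratios of 1.3, 1.5 and 2, 163 with stretches of at least 500 bp and 174 with fold enrichment in place of pileup, of which 137 were among the 523. It was 1046 in replicates 1 and 2 alone, 2354 in replicates 3 and 4 alone and 570 to 1887 with 1 replicate left out. On the ratio of the means of 4 libraries, which drops the pairing and also the demand on each pair, it was 3726. With pairs centred on their median it was 407, of which 328 were among the 523. The mirror count of 127 became 211 with centred pairs, 165 with scaling by fragment length and 53 with fold enrichment. On the ratio of the means it was 688.

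The 460 regions called in replicates 3 and 4 became 278 with centred libraries, 188 of 302 at 500 bp (16.4% of all called) and 59 of 582 with fold enrichment (1.18% of all), and 441 with the replicate block. The 21 called in replicates 1 and 2 became 33 with the replicate block, 5 with scaling by fragment length, which was chosen after seeing the data, and 0 with centred libraries, at 500 bp or with fold enrichment. At an unadjusted p under 0.05 these 3 settings gave 355 of 1241, 157 of 733 and 239 of 982 chosen regions, against 5.14%, 4.44% and 4.81% of all. With 1 library per genotype, the median ratio of the chosen regions was 1.72 and 1.53 in pairs 3 and 4, and 1.11 and 1.98 in pairs 1 and 2.

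The share within 1000 bp of a start was 45.5%. With 1 replicate left out, exons held 37.8% to 48.2%, introns 39.0% to 49.2%, GATC sites were 1.81 to 2.58 per kb and GC 47.0% to 49.0%. At 500 bp GATC sites were 3.34 per kb and GC 46.5%. A neighbour within 10 kb was found for 35.0% and 22.8% at ratios of 1.3 and 1.5 and for 30.5% to 49.2% with 1 replicate left out, and within 5 kb and 50 kb for 22.2% and 52.4%. The cause of these changes was not tested. Weighting by overlap changed no count, because each stretch lay in 1 peak. The number of tags at a given site limits each value and is unknown.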
